A study of Mus musculus with 8 samples.

Results

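The genes described here encode the Aurora kinases and their partners at the spindle, the centromere and the kinetochore. The group holds 10 genes, chosen by name with earlier results of these data known. They are the kinases Aurka, Aurkb and Aurkc, the activator Tpx2, the passenger proteins Incenp, Birc5 and Cdca8, and the kinetochore subunits Spc24, Spc25 and Ndc80. All 10 were found among the 34976 gene symbols read from the deposited table, on 41 transcript rows that were summed per symbol. The RNA came from CF-1 mouse embryos (outbred) at the late 2-cell stage. At the early 1-cell stage these had received either a scrambled control morpholino (Scr-MO) or a morpholino against the start region of the Med13 transcript (Med13-MO), an antisense oligomer meant to lower the Mediator subunit MED13. Both groups were therefore injected, and values of embryos without injection are not analysed here. Each group had 4 libraries, each from a separate pool of 40 embryos, so single embryos and single blastomeres cannot be resolved. In pooled embryos, fewer cells holding a transcript and less of it per cell cannot be told apart.

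Aurora kinases are serine/threonine kinases that drive spindle assembly and chromosome segregation. Aurora A, the product of Aurka, works at spindle poles and is switched on and held on the spindle by TPX2. Aurora B or its close relative Aurora C joins INCENP, survivin (Birc5) and borealin (Cdca8) in the chromosomal passenger complex, which releases wrongly attached microtubules at the centromere and later acts at the midbody. The NDC80 complex of the outer kinetochore, a rod that holds the microtubule, is one of its substrates. SPC24 and SPC25 form the end of that rod which faces the chromosome. Aurora C is best known from germ cells and the first cleavages, and the mouse egg stores mRNAs of this machinery for its meiotic and first mitotic divisions.

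Aurora kinases are paralogs, so the sequences that could share reads were looked at first. The longest identical run between the most abundant coding transcripts of Aurkb and Aurkc (GENCODE M21, GRCm38) was 25 bases. It is shown in capitals with the flanking bases at which the transcripts part, read 5′ to 3′ in the sense direction. It lies in coding sequence, in exon 7 of Aurkb (chr11:69048744-69048768, plus strand) and exon 5 of Aurkc (chr7:6999992-7000016, plus strand). The longest run shared by Aurka and Aurkb, 20 bases, is also coding (exon 8 of each transcript, chr2:172357205-172357224, minus strand, and chr11:69050333-69050352, plus strand).
Aurkb, run shared with Aurkc: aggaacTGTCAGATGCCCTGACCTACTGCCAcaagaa
Aurkc, run shared with Aurkb: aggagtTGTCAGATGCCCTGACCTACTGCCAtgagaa
Aurka, run shared with Aurkb: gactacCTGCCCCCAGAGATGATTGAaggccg
Aurkb, run shared with Aurka: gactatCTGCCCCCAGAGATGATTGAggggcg
Of the 1105 windows of 50 bases in the Aurkc transcript, 0 occurred in any annotated Aurkb or Aurka transcript, and the same count was 0 for the other pairings of the 3 kinases. A read of that length, if it matches one of these transcripts without mismatches, therefore fits only 1 of the 3 kinase genes. The sources used here do not state the read length or the mismatches allowed.

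Promoters of many genes expressed late in the cell cycle carry a CHR element (cell cycle genes homology region, TTTGAA), often beside CCAAT boxes. RefSeq promoter windows (GRCm38.p6, from upstream of the annotated start to 50 bases after it) matched 6 of the 10 genes, and 4 of these, Aurka, Cdca8, Spc25 and Ndc80, held TTTGAA on either strand. It occurred in 17.9% of all 32851 promoter windows. All 4 matches lie within 50 bases after the RefSeq start. For Aurka, Cdca8 and Spc25 this start differs from the GENCODE gene bounds given below. The matches of Aurka, Spc25 and Ndc80 are shown for their position after the RefSeq start. They have 12 bases on each side and the element in capitals, written along the strand of the gene.
Aurka, chr2:172370521-172370550, minus strand: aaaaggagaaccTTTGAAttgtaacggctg
Spc25, chr2:69206172-69206201, minus strand: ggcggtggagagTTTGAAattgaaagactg
Ndc80, chr17:71526811-71526840, minus strand: gaaactttaaaaTTCAAAccgccttgggtt
In Ndc80 the element stands on the opposite strand, so it reads TTCAAA. A match within 50 bases of the start on either side, a limit set after these positions were seen and counting the variant TTCGAA as well, occurred in 5.31% of all windows. The CCAAT motif, searched on both strands, was present in Aurka, Aurkc, Cdca8 and Spc25 and in 37.4% of all windows. Neither Birc5 nor Aurkc held TTTGAA in this window. These are letter matches only, and factor binding was not measured.

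Library totals read back from the FPKM steps were 31378977 to 48050262 fragments. Med13 mRNA, the target, stood at 41.1, 38.5, 38.2 and 47.5 FPKM in Scr-MO replicates 1 to 4 and at 43.9, 39.4, 41.7 and 43.8 FPKM in Med13-MO replicates 1 to 4 (limma adjusted p = 0.892). Since morpholinos need not lower the mRNA they bind, this value checks neither the labels nor the protein. Of 9 oocyte markers, led by Oosp1, 6 were called higher, and they summed to 96.5 to 119 FPKM in Scr-MO and 334 to 426 FPKM in Med13-MO libraries. Of 7 markers of the 2-cell stage, led by Tmem92, 6 were tested and 5 were called higher, with sums of 86.4 to 151 and 228 to 366 FPKM. Among all 11755 genes with a mean of at least 1 FPKM, 1092 were called higher. Of 9 cumulus, 6 blood and 5 oviduct markers, 1 each reached a mean of 1 FPKM (Amhr2, Cd68 and Epcam), with sums of 10.7 to 16.4 and 12.4 to 16.9, of 1.44 to 3.79 and 1.32 to 2.29, and of 20.4 to 32.4 and 26.4 to 33.6 FPKM. Of the 6 blood markers 5 were matched, and the haemoglobin gene Hbb was not among them. Of 5 sperm markers 3 were matched and 0 reached that mean. No matched marker stood at 0 in all 8 libraries. Foxl2, a cumulus marker, stood at 0 in all Med13-MO libraries. Its values in Scr-MO replicates 1 to 4 were also at or near 0, with 0.0107, 0, 0.0335 and 0 FPKM. The part of these markers in the results below was not tested.

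Across the group, 2 of the 10 genes fell after Med13-MO, the kinase Aurka and the kinetochore subunit Spc24, and none rose. Among all 11755 genes with a mean of at least 1 FPKM, limma called 17.1% in either direction and 7.81% lower (Benjamini-Hochberg adjusted p below 0.05 on log2(FPKM + 1)). The mean was lower in all 10 genes, against 55.5% of all genes tested. Their median log2 difference, Med13-MO minus Scr-MO, was -0.30, beside -0.06 over all genes. In 4 of the 10 genes, Aurka, Birc5, Spc24 and Spc25, every Med13-MO library lay below every Scr-MO library, which held for 11.1% of all genes tested. Because the 10 genes were chosen with earlier results of these data known, these counts are a description and not a test.

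**Figure D1:**
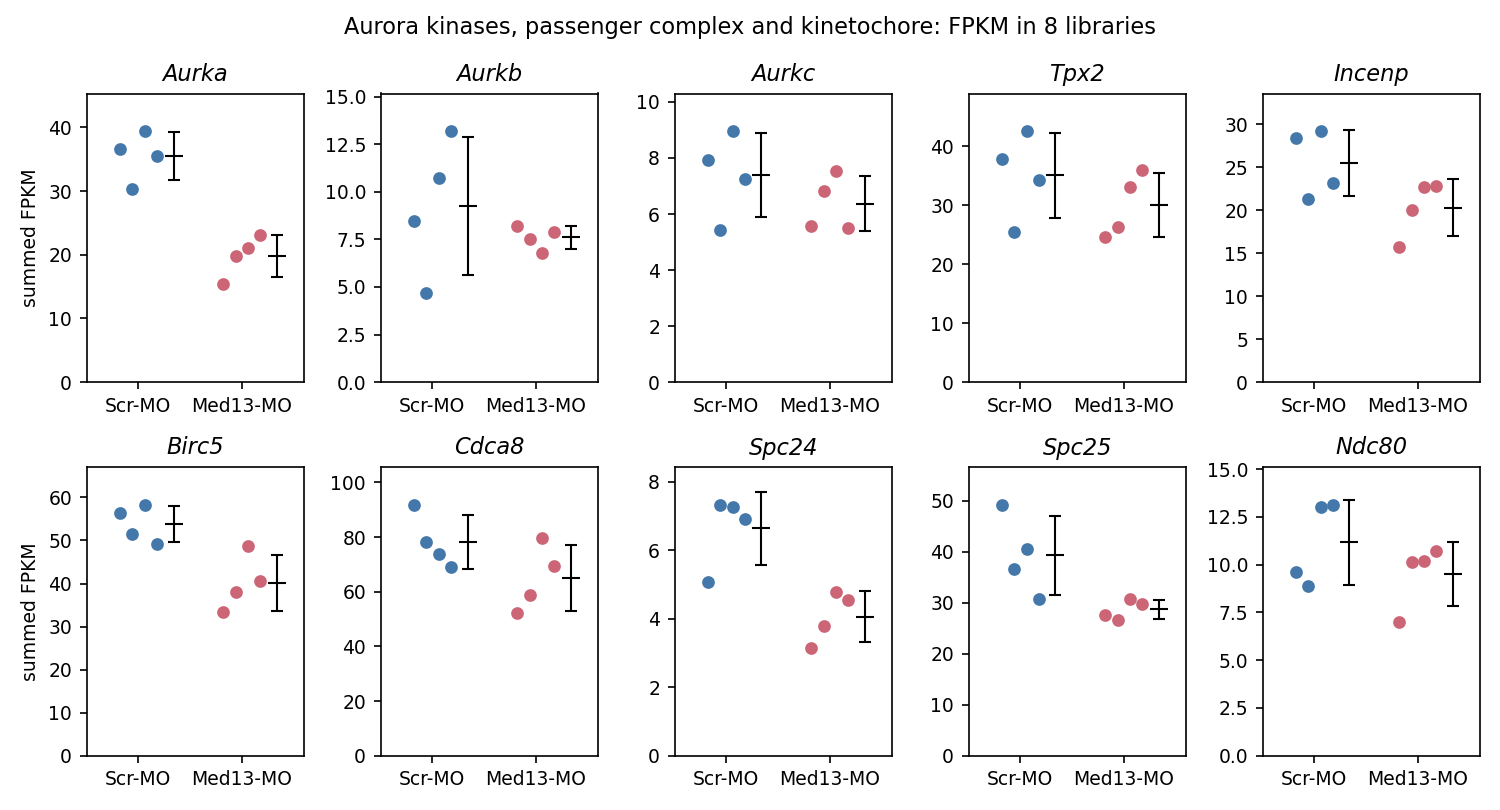
Summed FPKM (vertical axes, each from 0) of the 10 genes in 4 Scr-MO libraries (blue, replicates 1 to 4 from left to right) and 4 Med13-MO libraries (red), with the mean and SD beside the points. The groups are apart in Aurka, Birc5, Spc24 and Spc25 and overlap in the other genes.

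Aurka (ENSMUSG00000027496, GRCm38 chromosome 2, 172356190 to 172370535, minus strand) had the largest difference of the 10. Its summed level was 36.6, 30.4, 39.4 and 35.4 FPKM in Scr-MO replicates 1 to 4 and 15.4, 19.7, 21.1 and 23.2 FPKM in Med13-MO replicates 1 to 4. The highest Med13-MO library stayed below the lowest Scr-MO library, and the mean fell by 44.0%, from 35.5 ± 3.77 to 19.9 ± 3.28 FPKM (SD, n = 4 each; log2 difference -0.81 ± 0.17 SE, limma adjusted p = 0.00701). The call held in all 9 other settings and in all 8 fits that left out 1 library (adjusted p up to 0.0284).

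Tpx2 (chromosome 2, 152847964 to 152895321, plus strand), which activates Aurora A, did not pass the test. It stood at 37.9, 25.5, 42.6 and 34.2 FPKM after Scr-MO and at 24.6, 26.4, 33.0 and 36.1 FPKM after Med13-MO. The groups overlapped widely, with the lowest Scr-MO value close to the lowest Med13-MO value. The log2 difference was -0.21 ± 0.19 SE (limma adjusted p = 0.476, 95% interval -0.63 to 0.21).

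Set beside each other within a library, the kinase and its activator parted. The log2 ratio of Aurka to Tpx2, with 1 added to each summed FPKM, was -0.05, 0.24, -0.11 and 0.05 in Scr-MO replicates 1 to 4 and -0.64, -0.40, -0.62 and -0.62 in Med13-MO replicates 1 to 4. Every Med13-MO value was below every Scr-MO value. The means differed by -0.60 (two-sided exact permutation p = 0.0286 over 70 assignments, the smallest this design allows, and 0.2 after Benjamini-Hochberg adjustment over 7 ratios). With only the most abundant transcript of each gene the difference was -0.52. After adjustment the ratio did not pass 0.05, which with 7 ratios would need at least 5 of them to reach the smallest p.

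Aurkb (chromosome 11, 69045647 to 69051664, plus strand), the catalytic subunit of the passenger complex in most dividing cells, varied mainly among the controls. Its level was 8.48, 4.67, 10.7 and 13.2 FPKM in the Scr-MO libraries and 8.21, 7.53, 6.79 and 7.89 FPKM in the Med13-MO libraries. The Med13-MO values all lay inside the Scr-MO range. The log2 difference was -0.18 ± 0.24 SE (limma adjusted p = 0.642), and it was 0.0030 without Scr-MO replicate 4, the highest control. Weighting the libraries by their quality gave -0.44 with a limma adjusted p of 0.0493. That setting called 2624 of all 11755 genes tested lower, against 918 in the main fit.

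Aurkc (chromosome 7, 6995383 to 7003091, plus strand), the Aurora kinase of meiosis and early cleavage, stood at 7.92, 5.42, 8.96 and 7.26 FPKM after Scr-MO. The Med13-MO libraries had 5.58, 6.83, 7.53 and 5.51 FPKM. The groups overlapped, and the log2 difference was -0.18 ± 0.17 SE (limma adjusted p = 0.502, 95% interval -0.56 to 0.20). The log2 ratio of Aurkc to Aurkb was -0.23 ± 0.40 in Scr-MO and -0.23 ± 0.29 in Med13-MO libraries (SD, n = 4 each; two-sided exact permutation p = 1). Its difference of -0.0014 turned to 0.0224 with the most abundant transcripts only, and both are far smaller than the spread.

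The passenger proteins that anchor the kinase leaned lower without passing the test. Birc5 (chromosome 11, 117849251 to 117855743, plus strand) encodes survivin, which reads the phosphorylated centromeric histone. It stood at 56.4, 51.6, 58.3 and 49.2 FPKM after Scr-MO and 33.3, 38.1, 48.8 and 40.5 FPKM after Med13-MO. The groups did not overlap, though the highest Med13-MO and the lowest Scr-MO library were close. The means were 53.9 ± 4.20 and 40.2 ± 6.47 FPKM (SD, n = 4 each; log2 difference -0.42 ± 0.16 SE, limma adjusted p = 0.0857). With library weights, which called 2624 of all 11755 genes lower against 918 in the main fit, Birc5 passed (limma adjusted p = 0.0313).

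Incenp (chromosome 19, 9872296 to 9899551, minus strand), the scaffold whose C-terminal box activates Aurora B and C, had 28.4, 21.3, 29.2 and 23.1 FPKM in the Scr-MO libraries. It had 15.7, 20.02, 22.6 and 22.8 FPKM in the Med13-MO libraries. Med13-MO replicates 1 and 2 lay below every control, and replicates 3 and 4 lay within the control range (log2 difference -0.32 ± 0.17 SE, limma adjusted p = 0.223). Cdca8 (chromosome 4, 124918465 to 124939311, minus strand) encodes borealin, which links survivin to INCENP. It read 91.9, 78.4, 73.8 and 69.1 FPKM after Scr-MO and 52.3, 58.9, 79.8 and 69.6 FPKM after Med13-MO. Its groups overlapped, with Med13-MO replicate 3 above 3 controls (log2 difference -0.27 ± 0.17 SE, adjusted p = 0.299). Of the exonic bases of Cdca8, 4.48% are shared with the gene 9930104L06Rik on the other strand, whose reads may be included.

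Ratios among the passenger genes did not part the groups. The log2 ratio of Birc5 to Cdca8 was -0.53 ± 0.15 in Scr-MO and -0.68 ± 0.07 in Med13-MO libraries (SD, n = 4 each; two-sided exact permutation p = 0.114, adjusted 0.4). Incenp to Aurkb gave 1.44 ± 0.51 and 1.30 ± 0.32 (exact permutation p = 0.657). Incenp to Aurkc gave 1.67 ± 0.11 and 1.53 ± 0.23 (exact permutation p = 0.314).

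**Figure D2:**
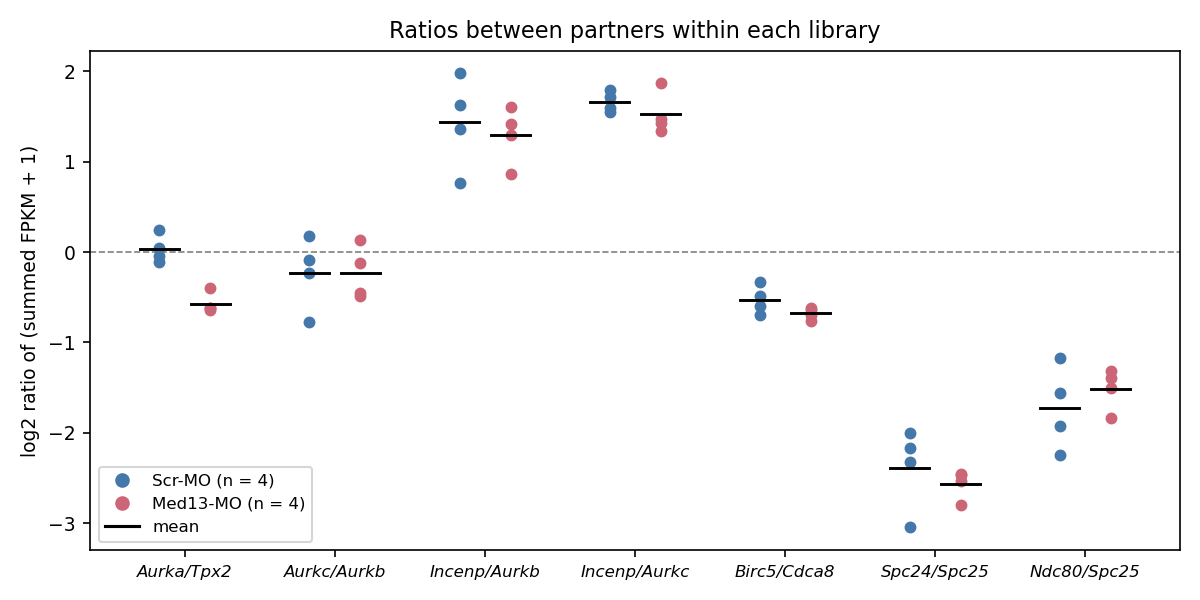
Log2 ratios of summed FPKM plus 1 between partner genes (vertical axis) for 7 pairs in 4 Scr-MO (blue) and 4 Med13-MO (red) libraries, with group means as black bars. Only the ratio of Aurka to Tpx2 has no overlap between groups, with means of 0.03 and -0.57.

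Spc24 (ENSMUSG00000074476, chromosome 9, 21755442 to 21760303, minus strand), the subunit that docks the NDC80 rod onto the inner kinetochore, was the second gene that fell. Its level was 5.07, 7.33, 7.26 and 6.92 FPKM in Scr-MO replicates 1 to 4 and 3.13, 3.78, 4.77 and 4.55 FPKM in Med13-MO replicates 1 to 4. All Med13-MO libraries were below the controls, narrowly so against Scr-MO replicate 1. The mean fell by 38.9%, from 6.64 ± 1.07 to 4.06 ± 0.752 FPKM (SD, n = 4 each; log2 difference -0.60 ± 0.17 SE, limma adjusted p = 0.0305). The call was lost without Scr-MO replicates 3 or 4 or Med13-MO replicates 1 or 2 (limma adjusted p = 0.0856, 0.0681, 0.0826 and 0.0912) and with no filter on low values (0.0796), with log2 differences of -0.50 to -0.60 in those fits.

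Spc25 (chromosome 2, 69193895 to 69206194, minus strand), the partner that forms a heterodimer with SPC24, was lower without passing. It stood at 49.2, 36.5, 40.4 and 30.8 FPKM after Scr-MO and at 27.7, 26.7, 30.7 and 29.8 FPKM after Med13-MO. The groups were apart by the difference between the lowest Scr-MO and the highest Med13-MO library, 30.8 against 30.7 FPKM. The means were 39.2 ± 7.73 and 28.7 ± 1.88 FPKM (SD, n = 4 each, log2 difference -0.42 ± 0.17 SE, limma adjusted p = 0.102). Library weights gave a limma adjusted p of 0.0334, again in the setting that called 2624 of all genes lower. Ndc80 (chromosome 17, 71496100 to 71526857, minus strand), which holds the microtubule, had 9.62, 8.91, 13.01 and 13.1 FPKM in Scr-MO and 7.01, 10.1, 10.2 and 10.7 FPKM in Med13-MO libraries. Its groups overlapped (log2 difference -0.21 ± 0.18 SE, limma adjusted p = 0.454).

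Within the NDC80 complex the 2 partners of the heterodimer could not be told apart in their response. The log2 ratio of Spc24 to Spc25 was -2.39 ± 0.46 in Scr-MO and -2.56 ± 0.16 in Med13-MO libraries (SD, n = 4 each; two-sided exact permutation p = 0.514). Ndc80 to Spc25 gave -1.72 ± 0.46 and -1.51 ± 0.23 (exact permutation p = 0.457).

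Single transcript rows followed their genes in 29 of the 30 rows with a mean of at least 1 FPKM, where the mean was lower after Med13-MO. Of all 21052 rows tested, 57.9% had a lower mean. Among the member rows 4 fell and 1 rose, where 7.57% of all rows fell and 15.7% were called in either direction. The 3 coding transcripts of Aurka fell. The mean FPKM after Scr-MO and Med13-MO was for Aurka-201 10.4 ± 0.712 and 5.59 ± 1.14, for Aurka-202 10.5 ± 1.13 and 5.70 ± 1.17 and for Aurka-203 10.9 ± 1.04 and 6.06 ± 0.821 (SD, n = 4 each; limma adjusted p = 0.00664, 0.00881 and 0.00704). Rows of 1 gene can share exons, so they are not independent measurements. The retained-intron row Aurka-205 had 3.17 ± 0.874 and 1.85 ± 0.159 FPKM (log2 difference -0.52, adjusted p = 0.0502).

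The row that rose was Tpx2-203, a noncoding processed transcript of 380 bases. It stood at 0.803, 0.122, 1.23 and 0.353 FPKM after Scr-MO and at 1.22, 1.22, 1.64 and 2.50 FPKM after Med13-MO. The groups overlapped through Scr-MO replicate 3, and 2 to 43.5 fragments lay behind each value. Its log2 difference was 0.72 ± 0.21 SE (limma adjusted p = 0.0342), and it was called in 3 of the 7 fits without 1 library in which it was tested. The row reached a mean of 1 FPKM only through the Med13-MO libraries (0.628 ± 0.492 and 1.64 ± 0.606 FPKM, SD, n = 4 each), so the filter favoured a rise, and with no filter on low values its limma adjusted p was 0.143. The 4 coding rows of Tpx2 had log2 differences from -0.30 to -0.22, and none passed. For Birc5, the row of 4 exons went with 42.6 ± 3.89 and 31.6 ± 5.28 FPKM and the row of 3 exons with 11.3 ± 0.688 and 8.56 ± 1.36 FPKM (SD, n = 4 each). The first row made up 79.0% of the Birc5 sum on average in Scr-MO and 78.7% in Med13-MO libraries.

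**Figure D3:**
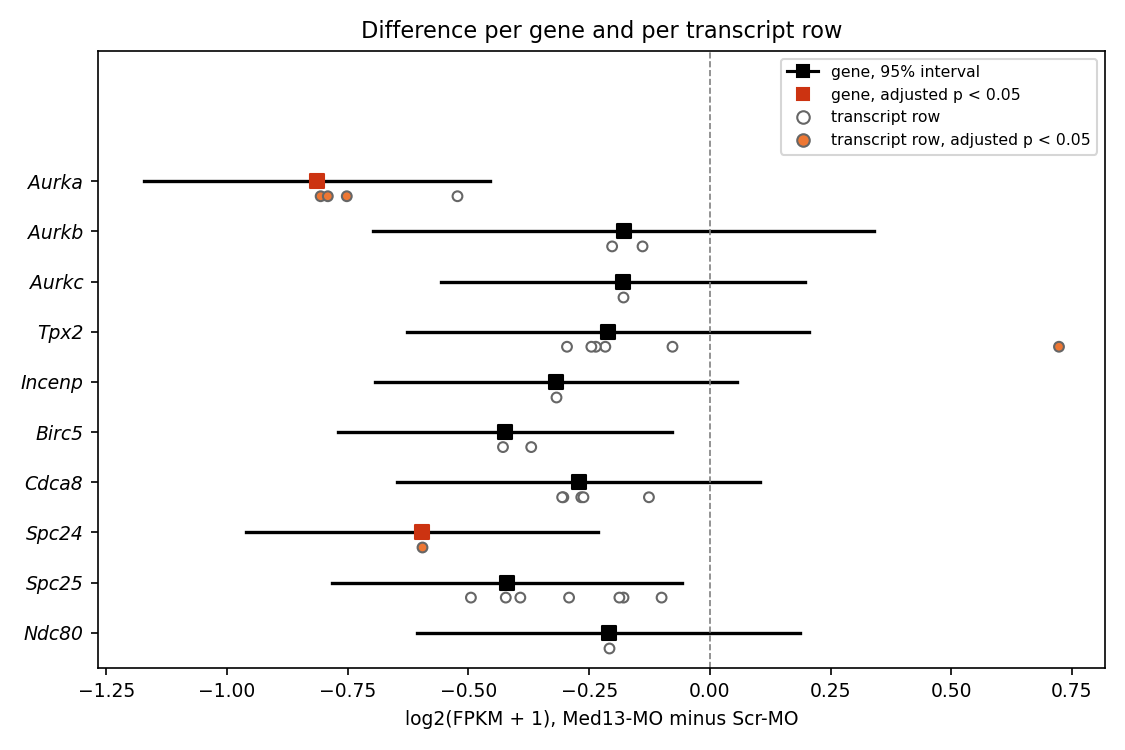
Log2 difference, Med13-MO minus Scr-MO, on the log2(FPKM + 1) scale (horizontal axis) per gene as squares with 95% limma intervals and per transcript row as circles below. Filled red or orange marks an adjusted p below 0.05: Aurka and Spc24 among genes, 3 Aurka rows, Spc24-201 and, to the right of 0, Tpx2-203 among rows.

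Whether fragments from shared exons were counted in every row of a gene or divided among the rows is not stated. A sum overstates genes with many rows in the first case, and the most abundant row understates them in the second, so levels between genes, in FPKM and thus per length, are given both ways. By the most abundant row, Cdca8 led in Scr-MO embryos with 51.9 ± 7.39 FPKM, followed by Birc5 (42.6 ± 3.89) and Incenp (25.5 ± 3.86) (SD, n = 4 each). Cdca8 and Birc5 overlapped, and Incenp lay below both. Ndc80 (11.2 ± 2.22), Aurka (10.9 ± 1.04), Spc25 (8.51 ± 1.62), Aurkc (7.39 ± 1.49), Tpx2 (7.33 ± 1.73) and Spc24 (6.64 ± 1.07) formed a run in which each overlapped the next. Aurkb was the lowest at 2.99 ± 1.10 FPKM, below every Spc24 value of that group. By the sum over rows the Scr-MO means were 78.3 FPKM for Cdca8, 53.9 for Birc5, 39.2 for Spc25, 35.5 for Aurka, 35.1 for Tpx2, 25.5 for Incenp, 11.2 for Ndc80, 9.26 for Aurkb, 7.39 for Aurkc and 6.64 for Spc24. In that order Cdca8 lay above Birc5, Birc5 narrowly above Spc25 and Incenp above Ndc80 in all Scr-MO libraries, and the other neighbours overlapped. Cdca8 and Birc5 led both ways, while the places of all other members depended on the measure. The Aurkc row exceeded the Aurkb row in all 8 libraries, whereas the sum over the 8 Aurkb rows was above Aurkc in 6 of them. Only 2 of those 8 Aurkb rows are protein coding, and they held 55.9% to 69.0% of the Aurkb sum in a library. The single Aurkc row is coding, so the sums do not compare coding RNA alone. Incenp-201 rested on about 1921 to 4540 fragments per library, Cdca8-202 on 2090 to 3852 and Aurkb-202, the shallowest of the 10, on 119 to 320. The Incenp-201 counts did not fall on steps of 0.5 fragments, so they are approximate.

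**Figure D4:**
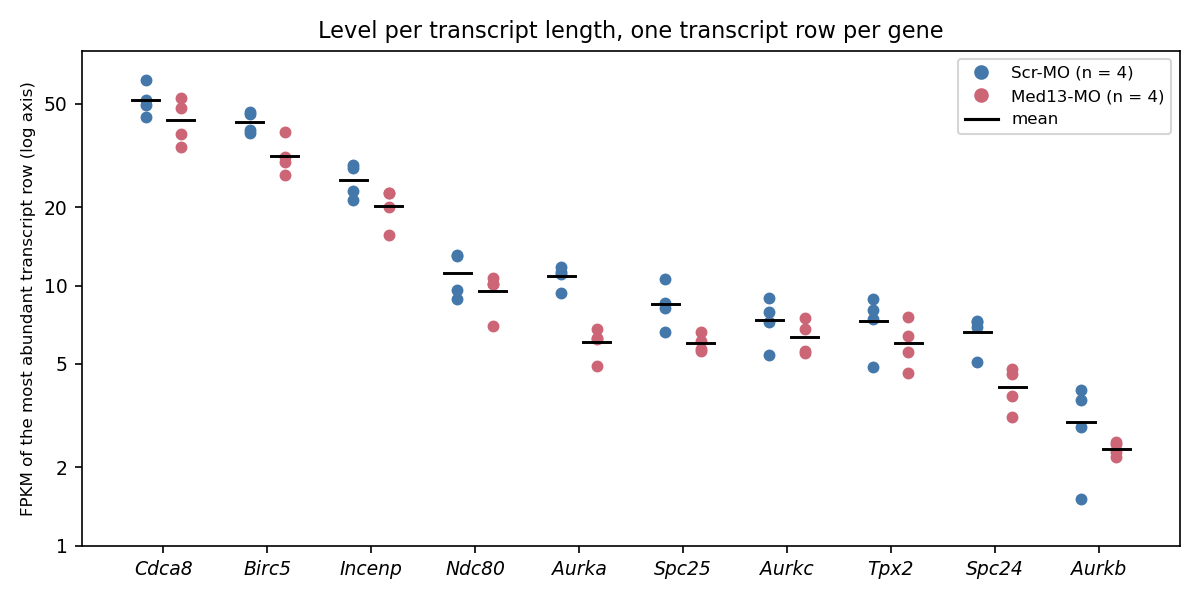
FPKM of the most abundant transcript row of each gene (vertical log axis) in 4 Scr-MO (blue) and 4 Med13-MO (red) libraries, with means as black bars, ordered by the Scr-MO mean. Cdca8, Birc5 and Incenp lie above 15 FPKM in every library, and Aurkb is the lowest in both groups, an order that differs from that of the sums over rows.

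Part of the spread followed single libraries. Med13-MO replicate 1 was the lowest of its group in 7 of the 10 genes, and Scr-MO replicate 2 in 6 of 10. The median of the 10 genes relative to the Scr-MO means was -0.57, -0.39, -0.15 and -0.25 on the log2 scale in Med13-MO replicates 1 to 4 and -0.22 in Scr-MO replicate 2. Over all genes tested the same medians were -0.16, -0.08, -0.02 and 0.05, and -0.16. The part of the whole library in these values was not tested.

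For each kinase, the 3 genes whose centred log2(FPKM + 1) lay nearest over the 8 libraries were found by root mean square difference, a description without a test. Nearest to Aurka were Crb3 (0.08), a cell polarity protein, Slmap (0.09) and the ribosome-associated chaperone Dnajc2 (0.10). They had log2 differences of -0.70, -0.73 and -0.81, where Aurka had -0.81. Because these genes were picked for likeness over the same libraries, similar differences follow from the choice. Among the other 9 members, Spc24 ranked nearest to Aurka, at position 394 (0.22), and Aurkb farthest, at 4790 (0.46). Among the 3 nearest to Aurkb were Dph7 and Vkorc1 (each 0.10), and nearest to Aurkc were Vav2 (0.05), Smyd3 (0.07) and Myo9a (0.08). No member was among the 3 nearest of any kinase. Member ranks reached 6579 (Spc24 for Aurkb), so 3 places are few among the genes ranked. Whether the members vary together was not tested.

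The other genes of the pathway were read from lists of names, and the share of called genes differed between the lists. Of 24 tested cofactors and regulators of the Aurora kinases, 0 passed in either direction, where 17.1% of all genes tested did. Their median log2 difference was -0.06, as over all genes. Plk1, which activates and is activated by Aurora A, stood at 17.1 ± 1.45 and 12.97 ± 1.92 FPKM (SD, n = 4 each; log2 difference -0.38 ± 0.16 SE, limma adjusted p = 0.112). Ppp1cc, a catalytic subunit of the phosphatase that opposes Aurora B, was the most abundant of the list at 166 ± 15.7 and 168 ± 21.3 FPKM. Of 18 tested outer kinetochore genes 0 passed (median -0.04), again beside 17.1% of all genes. The motor Cenpe was the most abundant of them at 39.9 ± 7.46 and 35.1 ± 5.07 FPKM. Mis12, the base of the complex that receives SPC24 and SPC25, had 13.8 ± 1.81 and 19.7 ± 2.20 FPKM and missed the threshold (adjusted p = 0.0510). Plk1 and Mis12 were singled out after their values were seen.

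Of 16 tested effectors and handlers of the passenger complex 4 fell and 1 rose, with a median log2 difference of -0.23, where 7.81% of all genes were called lower and 17.1% in either direction. Klhl13 and Klhl21, adaptors that bring Aurora B to the CUL3 ubiquitin ligase, went in opposite directions. Klhl13, which acts with KLHL9 to remove Aurora B from mitotic chromosomes, had 1.42, 0.411, 1.47 and 1.25 FPKM after Scr-MO and 5.63, 5.33, 5.22 and 7.05 FPKM after Med13-MO. The groups were far apart (log2 difference 1.70 ± 0.19 SE, limma adjusted p = 0.000227), a call that held in every alternative in which the gene was tested. Klhl21, which acts on Aurora B at the spindle midzone, had 30.9, 26.7, 31.9 and 29.3 FPKM after Scr-MO and 10.4, 19.0, 19.3 and 18.3 FPKM after Med13-MO. It fell by 0.83 ± 0.20 SE on the log2 scale (adjusted p = 0.0147), a call lost with no filter on low values (0.0573). Cul3 itself was the most abundant gene of the list, at 269 ± 40.8 and 244 ± 33.8 FPKM (adjusted p = 0.620).

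The other 3 effectors that fell were motors or export factors. Kif2c, the microtubule depolymerase that Aurora B controls at centromeres, had 23.1 ± 6.76 FPKM in Scr-MO and 12.9 ± 2.40 FPKM in Med13-MO libraries (SD, n = 4 each; log2 difference -0.76 ± 0.22 SE, limma adjusted p = 0.0311). That call was lost in 4 of the 8 fits without 1 library (without Scr-MO replicates 3 or 4 or Med13-MO replicates 1 or 2, adjusted p up to 0.0877) and with no filter on low values (0.107). Xpo1, the export receptor that binds survivin, went from 73.1 ± 5.14 to 47.2 ± 3.97 FPKM (log2 difference -0.62 ± 0.15 SE, adjusted p = 0.0140, and 0.0560 without Med13-MO replicate 2). Kif20b, a kinesin of the midbody, went from 31.6 ± 2.50 to 21.5 ± 3.21 FPKM (log2 difference -0.55 ± 0.16 SE, adjusted p = 0.0314), and falls outside the rule for named genes.

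Of the inner kinetochore list, the most abundant gene, Apitd1 (CENP-S), had 36.0 ± 6.03 and 35.0 ± 10.5 FPKM in Scr-MO and Med13-MO libraries (SD, n = 4 each; limma adjusted p = 0.833). In the spindle assembly checkpoint 1 of 13 genes rose and 1 fell (median 0.08), a share near the 17.1% of all genes called in either direction. Trip13, the ATPase that remodels the checkpoint protein MAD2, went from 16.1 ± 2.76 to 9.43 ± 2.10 FPKM (SD; log2 difference -0.72 ± 0.18 SE, adjusted p = 0.0202). Mad1l1, which recruits MAD2 to kinetochores, went from 1.496 ± 0.348 to 2.78 ± 0.675 FPKM (log2 difference 0.59 ± 0.17 SE, adjusted p = 0.0291). The Trip13 call was lost without Scr-MO replicate 3 or Med13-MO replicates 1 or 2 and with no filter on low values (limma adjusted p up to 0.0764). That of Mad1l1 was lost without Scr-MO replicates 3 or 4 or Med13-MO replicates 2 or 4 and with no filter (up to 0.0838). Tpr, the most abundant of this list, had 176 ± 23.0 and 187 ± 29.4 FPKM.

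**Figure D5:**
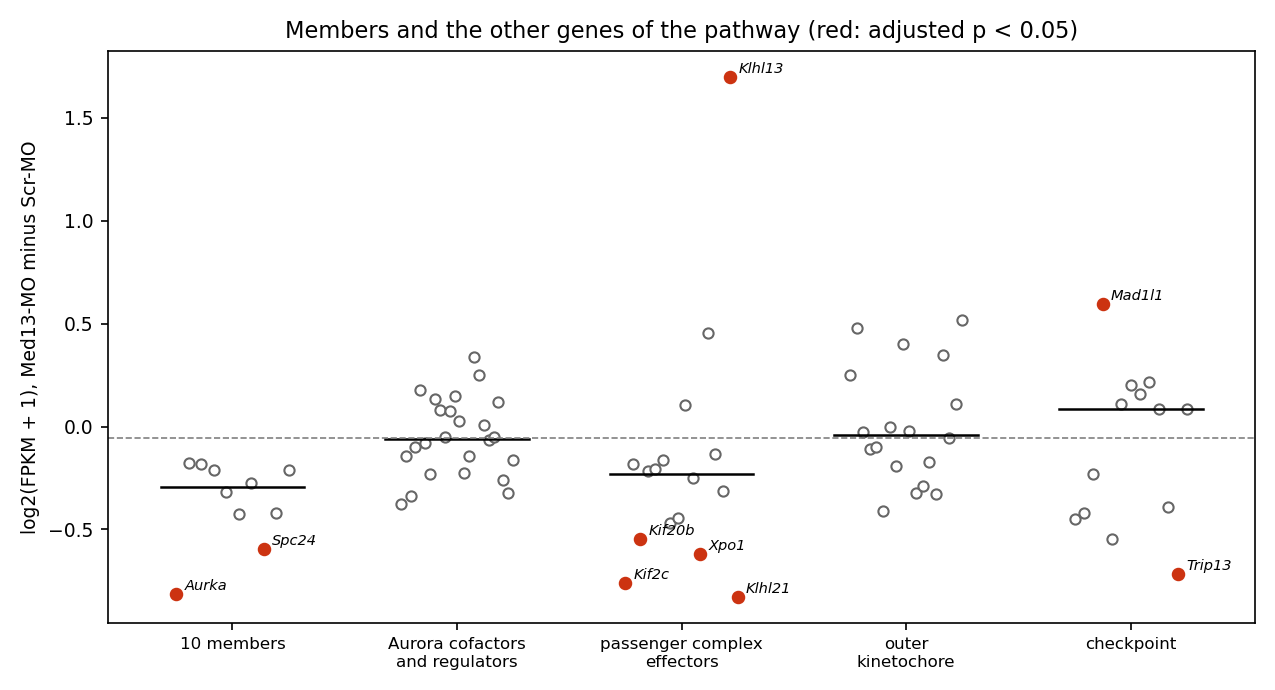
Log2 difference, Med13-MO minus Scr-MO, on the log2(FPKM + 1) scale (vertical axis) for the 10 genes and the tested genes of 4 pathway lists, 1 circle per gene, with list medians as black bars and the median of all genes tested as a dashed line. Red marks an adjusted p below 0.05, with Klhl13 the highest at 1.70 and Klhl21 and Aurka the lowest at -0.83 and -0.81.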

How the data were processed

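The authors deposited FPKM values (fragments per kilobase of transcript, scaled to library size) for 97496 Ensembl transcript rows. Per the submitters' processing notes, BWA and mm10 were used; the sources used here do not state the counting tool, annotation or strand setting. Per the labels' protocols, total RNA was amplified and 400 ng of cDNA entered each library, and replicates are separate embryo collections. In 3758 rows with a hyphenated symbol, text fills the first value column; these were left out. FPKM times transcript length moved in steps, taken as 0.5 fragments, in 94.3% to 94.5% of values up to 20 fragments, which gave the library totals. Amplified reads are not independent molecules.

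Rows were summed per symbol and kept at a mean of at least 1 FPKM. Values were tested as log2(FPKM + 1), which understates changes of low genes, with limma 3.58.1 in R 4.3.3 (variance trend, two-sided, 8 libraries, no covariate, Benjamini-Hochberg adjustment), tested on simulated data first. Members and lists were chosen with earlier results of these data known. Genes named were the members, Med13, up to 4 called genes of smallest adjusted p and the most abundant gene of each pathway list, the 3 nearest genes of each kinase and the leading gene of each marker list; Plk1, Mis12 and Kif20b were added after their values were seen. Some items that this rule covers are not reported here. Alternatives were another pseudocount, other filters and scalings, library weights, no variance trend, other transcript choices and leaving out each library.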

Additional observations from a re-analysis of the deposited data

Results flagged for a closer look

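In a group of 4, a library is listed here when its gap to the nearest other is, as a share of the range of the group, above Dixon's 95% critical value. Of 36 groups checked, 2 were, and chance gives about 1 in 20. Ndc80 in Med13-MO replicate 1 was 7.01 FPKM, where the other 3 libraries had 10.1 to 10.7 FPKM. The log2 ratio of Aurka to Tpx2 in Med13-MO replicate 2 was -0.40, where the other 3 had -0.64 to -0.62, and it was still below every Scr-MO library.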

How the results depend on the processing

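No paired analysis was made, because the labels give no replicate numbers and do not say that collections were shared. The replicate numbers used here follow the order of the sample numbers within each group, so equal numbers do not mark known pairs. The sample numbers in the titles alternate between the groups, and whether this marks pairs was not tested. Members called lower numbered 2, against 5 with library weights and 1 with no filter, and 1 to 2 without 1 library. Aurkb, Birc5 and Spc25 were the additions, and Spc24 was the loss. Over all genes 2010 were called, against 4336 with library weights (39.5% of them higher, 54.3% in the main fit), 1137 at a mean of at least 5 FPKM, 1012 with no filter, and 956 to 2404 without 1 library. Member rows called lower numbered 4, against 14 with library weights, and 3 to 6 without 1 library. Over all 11755 genes tested, library weights raised the number called lower from 918 to 2624. With library weights the log2 differences of Amhr2 (-0.0650), Apitd1 (0.0731), Cul3 (0.0554), Med13 (-0.0245), Ppp1cc (-0.0406) and Tpr (-0.0161) changed sign, none of them called. Without 1 library the ranges crossed 0 for Aurkb (-0.44 to 0.0030), Med13 (-0.0011 to 0.10), Amhr2 (-0.0747 to 0.17), Apitd1 (-0.20 to 0.15), Ppp1cc (-0.0638 to 0.0884) and Vkorc1 (-0.35 to 0.0609). The ratio differences of Aurkc to Aurkb (-0.18 to 0.14 without 1 library, 0.0224 by main transcripts) and Incenp to Aurkb (-0.36 to 0.0405) also crossed 0. The cause of these changes was not tested. Aurkb-202, with 119 to 320 fragments per library, was the shallowest main row.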
